A study of Mus musculus with 11 samples.

Results

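The genes described are the 36 mouse Hox cluster genes that a probe set of the array measured under a single symbol, out of 22180 genes named in the same way. They were taken by symbol alone, Hoxa to Hoxd followed by a number of 1 to 13 and no antisense transcripts, and for a gene with several probe sets the one with the highest average across the 11 arrays was read. HoxA gave 9 members (Hoxa2 to Hoxa7, Hoxa9, Hoxa10 and Hoxa13), HoxB 10 (Hoxb1 to Hoxb9 and Hoxb13), HoxC 9 (Hoxc4 to Hoxc6 and Hoxc8 to Hoxc13) and HoxD 8 (Hoxd1, Hoxd3 and Hoxd8 to Hoxd13). Hoxa11 and Hoxd4 were read only by probe sets that carry several symbols and are not members.

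Hox genes encode homeodomain transcription factors and lie in clusters, HoxA to HoxD, in which the order of the genes along the chromosome follows the order in which they act along the head-to-tail axis. Low-numbered (anterior) genes pattern the hindbrain and neck, middle (central) genes the trunk, and high-numbered (posterior) genes the lumbar and tail regions and the distal limb and genitalia. Fibroblasts keep a Hox pattern that records their place in the body, whereas in embryonic stem cells most of these genes are held at a low level by Polycomb complexes.

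The study followed reprogramming of mouse embryonic fibroblasts (MEF) toward pluripotency on whole-transcript arrays. The fibroblasts were heterozygous for the reverse tetracycline transactivator at the Rosa locus (Rosa-rtTA +/-) and were infected with viruses that express Klf4, Oct4, Sox2 and Myc under a tetO promoter, which doxycycline turned on at day 0. Cells were taken at day 9 and day 6 as CD49d+ and CD73+ cells, which the labels call poised, as CD73- cells, which they call non-poised, and unsorted. CD49d and CD73 are surface proteins, and the sorted cells had been sorted a second time. The other arrays were SC4, a partially reprogrammed line at passage 10, V6.5 embryonic stem cells (ESC) at passage 11, and control Rosa-rtTA +/- MEF at passage 4, so the transactivator is shared by the reprogramming cells and the MEF. Each of these 11 groups is 1 array, and whether SC4 is a single clone was not given in the sources used here.

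Levels are deposited linear intensities on which every value below 100 had been set to 100, here called the floor. A value at the floor is an upper bound, and 52.14 to 54.31% of the probe sets of an array lay there. Levels of 1 gene are compared across arrays only, since probe sets differ in brightness. The summed intensity of 10 fibroblast markers was 3212 to 13107 on the 8 reprogramming arrays, 1551 in SC4, 3310 in ESC and 43870 in MEF, and 9 of the 10 were at least 2-fold below MEF on all 8 reprogramming arrays. The stem cell markers summed to 1729 to 2465 on the reprogramming arrays, 2022 in SC4, 29411 in ESC and 1600 in MEF, and each reprogramming array had Sox2, Zfp42, Esrrb, Dppa5a, Dppa3 and Tdgf1 at the floor. Whether the Sox2 probe set reads the Sox2 expressed from the virus was not tested. The Pou5f1 probe set did not mark ESC, with 107 to 142 on the reprogramming arrays, 143 in SC4, 123 in ESC and 105 in MEF. The neural list summed to 4731 to 9749 on the reprogramming arrays, 7704 in SC4, 4570 in ESC and 1110 in MEF. Of its 6 genes, 2 were at least 2-fold higher than MEF on all 8 reprogramming arrays. The endothelial list summed to 867 to 2153 on those arrays, 1699 in SC4, 1067 in ESC and 522 in MEF. The epithelial list summed to 1145 to 2779 on them, 1831 in SC4, 8639 in ESC and 945 in MEF. Of 6 blood markers, Ptprc, Csf1r, Tyrobp and Lyz2 were at the floor on all 8, Cd68 had 527 to 662 there, 483 in SC4, 1062 in ESC and 356 in MEF, and Laptm5 had 178 to 335 in poised cells, 100 to 124 in CD73- cells, 1203 in SC4, 344 in ESC and the floor in MEF. Laptm5 passed the poised test as higher, by 1.17 ± 0.115 on the log2 scale with an adjusted limma p of 0.00856. The part these cell-type differences play in the Hox levels was not tested, and in such bulk samples fewer cells of a type and less RNA per cell cannot be told apart.

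Of the 36 Hox genes, 25 to 27 were above the floor on a reprogramming array, 22 in SC4, 19 in ESC and 30 in MEF. On all 8 reprogramming arrays 22 members were above the floor. Hoxa3, Hoxb13, Hoxc5 and Hoxc11 were at the floor on all 11 arrays. A probe set shared by Hoxa3 and 5730446D14Rik, left out by the member rule, had 109 to 153 on the sorted arrays. It had 143 in SC4, 182 in ESC and 181 in MEF. Hoxb8 at 108 and Hoxd1 at 100.3 were above the floor in MEF alone, and Hoxc12 at 111 in ESC alone. These 3 passed the filter on low values only through the array where they were high. In all 32 members passed, and 29 had a value above the floor on the reprogramming arrays and entered the tests.

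**Figure D1:**
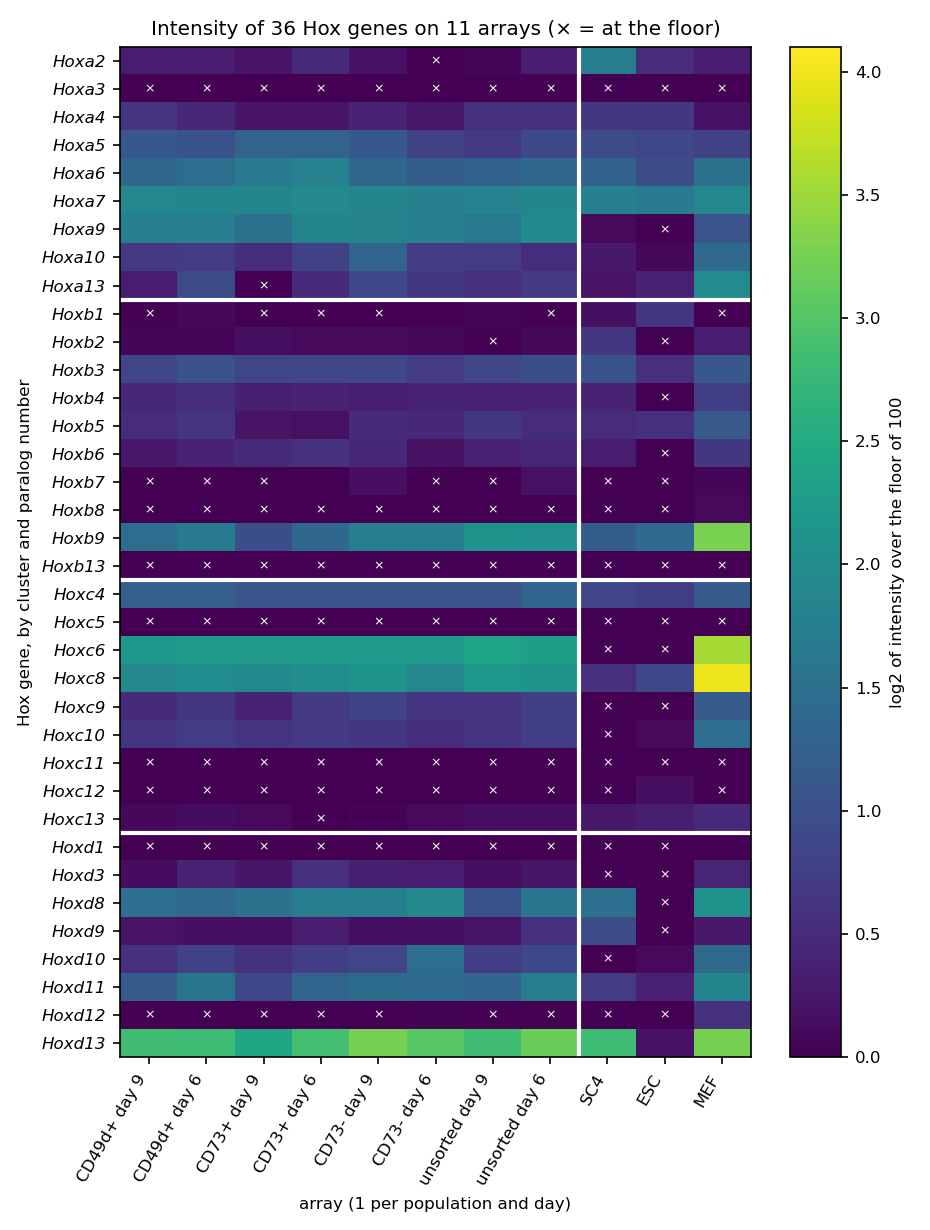
Intensity of the 36 Hox genes (rows, in cluster order) on the 11 arrays (columns), coloured by log2 of the deposited linear intensity over the floor of 100, with a cross on values at the floor. The ESC column has 19 genes above the floor and the MEF column 30, and Hoxa3, Hoxb13, Hoxc5 and Hoxc11 are at the floor in every column.

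The first question was how far the MEF Hox pattern had changed in the reprogramming cells. Hoxc6, Hoxc8, Hoxb9 and Hoxa13 were at least 2-fold lower than in MEF on all 8 reprogramming arrays, and no Hox gene was at least 2-fold higher on all 8. This is 4 of the 36 members, of which 32 passed the filter. Over all 14301 genes that passed, 5.78% were lower and 4.89% higher by this rule. With 1 MEF array, the counts carry no test and rest on that array. The 4 genes stayed at least 2-fold lower on all 8 arrays when the arrays were median-centred or quantile-normalized.

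Hoxc8, which patterns the thoracic skeleton and its motor neurons, had 380.2 and 398 in CD49d+ cells at days 9 and 6, 388 and 406 in CD73+ cells, 434 and 374 in CD73- cells, and 457 and 436 in unsorted cells, against 146 in SC4, 186 in ESC and 1601 in MEF. The reprogramming arrays lay close together, between SC4 and ESC below and MEF above, and did not overlap with any of these. They were between 3.51-fold and 4.29-fold lower than MEF. Hoxc6, a neighbour of Hoxc8 that also acts in the thoracic region, had 453 and 476 in CD49d+ cells at days 9 and 6, 464 and 465 in CD73+ cells, 465 and 465 in CD73- cells, and 518 and 484 in unsorted cells, against the floor in SC4 and ESC and 1164 in MEF. All 8 reprogramming arrays were thus 2.25-fold to 2.57-fold lower than MEF and clear of the floor, while SC4 and ESC were each at least 11.6-fold lower than MEF.

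Hoxb9, a posterior gene that helps set the number and form of the ribs, had 280.0 and 319 in CD49d+ cells at days 9 and 6, 197 and 259.8 in CD73+ cells, 339 and 336 in CD73- cells, and 428 and 419 in unsorted cells, against 231 in SC4, 270.3 in ESC and 963 in MEF. The CD73+ array of day 9 was below both SC4 and ESC, and all reprogramming arrays were below MEF, by 2.25-fold to 4.88-fold. Hoxa13, needed for the digits and the genital tract, had 124 and 191 in CD49d+ cells at days 9 and 6, the floor and 141 in CD73+ cells, 183 and 159 in CD73- cells, and 148 and 162 in unsorted cells, against 117 in SC4, 130.2 in ESC and 393 in MEF. MEF stood alone at the high end, and the reprogramming arrays overlapped SC4 and ESC.

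**Figure D2:**
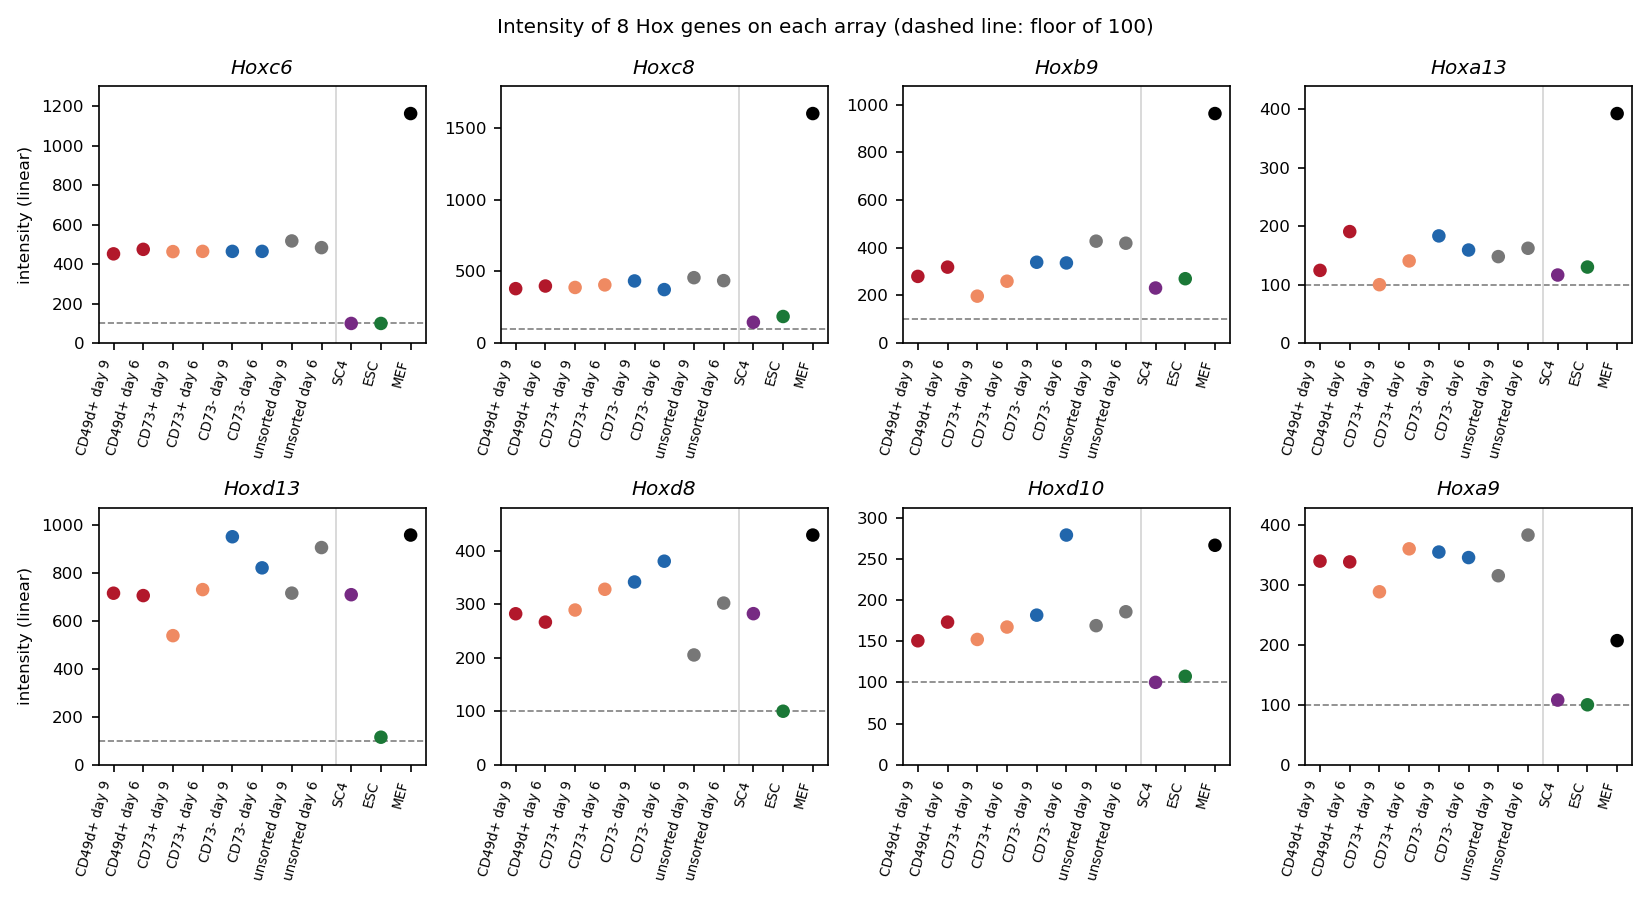
Deposited intensity (vertical axis, linear scale, with its own range for each gene) of 8 Hox genes on each of the 11 arrays, 1 point an array, with the floor of 100 drawn as a dashed line. Hoxc8 and Hoxc6 are highest in MEF at 1601 and 1164, and Hoxa9 is higher on all 8 reprogramming arrays than in MEF.

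Hoxa9, a posterior HoxA gene that acts in the axial skeleton and in blood progenitors, went the other way. It had 339.8 and 339 in CD49d+ cells at days 9 and 6, 289 and 360.4 in CD73+ cells, 355 and 346 in CD73- cells, and 315 and 383 in unsorted cells, against 108 in SC4, the floor in ESC and 207 in MEF. All 8 reprogramming arrays were above MEF, by 1.39-fold to 1.85-fold, and SC4 and ESC were below it. The smallest of these 8 differences was 0.48 on the log2 scale as deposited, 0.34 after centring and 0.47 after quantile normalization, so the direction held under each scaling. Hoxa10, its neighbour, which acts in the uterus and the lumbar vertebrae, had 159.6 and 166 in CD49d+ cells at days 9 and 6, 145 and 175 in CD73+ cells, 251 and 168 in CD73- cells, and 166 and 145 in unsorted cells, against 121 in SC4, 107 in ESC and 266 in MEF. All 10 other arrays were below MEF, although the CD73- array of day 9 was nearly level with it.

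Hoxd13 and Hoxd8 were far below MEF in ESC and less so in SC4 and the reprogramming cells. Hoxd13, the last gene of its cluster and a regulator of digit formation, had 717 and 707 in CD49d+ cells at days 9 and 6, 539 and 732 in CD73+ cells, 953 and 823 in CD73- cells, and 717 and 907 in unsorted cells, against 710.3 in SC4, 115 in ESC and 959.6 in MEF. ESC alone was far below the rest, at 8.36-fold less than MEF, while the reprogramming arrays were 1.01-fold to 1.78-fold and SC4 1.35-fold lower than MEF. Hoxd8, a central gene of the trunk, had 282 and 267 in CD49d+ cells at days 9 and 6, 289 and 328 in CD73+ cells, 342 and 381 in CD73- cells, and 205 and 302 in unsorted cells, against 283 in SC4, the floor in ESC and 429.7 in MEF. SC4 lay inside the range of the reprogramming arrays, and ESC was at least 4.3-fold below MEF.

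Hoxd11, which with its HoxA counterpart shapes the forearm, had 228 and 301 in CD49d+ cells at days 9 and 6, 184 and 250.0 in CD73+ cells, 275 and 264 in CD73- cells, and 254 and 334 in unsorted cells, against 165 in SC4, 130.1 in ESC and 359 in MEF. Every reprogramming array lay between SC4 and MEF. Hoxd10, a gene of lumbar motor neurons, had 151 and 173 in CD49d+ cells at days 9 and 6, 152 and 167 in CD73+ cells, 182 and 279 in CD73- cells, and 169 and 186 in unsorted cells, against the floor in SC4, 107 in ESC and 267 in MEF. Only the CD73- array of day 6 reached the MEF level.

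The promoters of the HoxD and HoxA genes with the most different patterns are shown so that they can be set beside the levels. Hoxd13 and Hoxd8 were less than 2-fold below MEF in SC4, Hoxd10 was at the floor there, and Hoxa9 and Hoxa13 stood on opposite sides of MEF in the reprogramming cells. Each window holds 300 bases around the RefSeq start in build GRCm38.p6, read 5′ to 3′ on the strand of the gene. The positions are chr2:74667975-74668274 on the + strand for Hoxd13, chr2:74704365-74704664 on the + strand for Hoxd8, chr2:74691641-74691940 on the + strand for Hoxd10, chr6:52227321-52227620 on the - strand for Hoxa9 and chr6:52260831-52261130 on the - strand for Hoxa13. The GC box was searched as GGGCGG and the TATA box as TATAAA. The CCAAT box was searched by those letters, the PBX-HOX site as TGATTNAT and the MEIS site as TGACAG. Capitals mark a match to any of them on either strand, and overlapping matches run together.
Hoxd13: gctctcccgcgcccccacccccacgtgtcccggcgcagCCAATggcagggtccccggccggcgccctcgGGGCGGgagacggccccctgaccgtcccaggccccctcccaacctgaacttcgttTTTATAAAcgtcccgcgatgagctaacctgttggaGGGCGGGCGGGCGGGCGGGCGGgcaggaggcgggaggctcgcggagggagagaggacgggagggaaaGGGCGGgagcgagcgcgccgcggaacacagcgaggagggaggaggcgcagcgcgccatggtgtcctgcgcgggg
Hoxd8: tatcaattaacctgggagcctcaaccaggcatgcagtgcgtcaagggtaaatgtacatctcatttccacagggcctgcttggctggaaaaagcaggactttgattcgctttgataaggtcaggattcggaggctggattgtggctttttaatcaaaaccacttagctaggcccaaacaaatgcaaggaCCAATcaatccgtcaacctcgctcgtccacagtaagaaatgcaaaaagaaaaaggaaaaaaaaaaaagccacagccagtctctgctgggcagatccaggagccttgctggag
Hoxd10: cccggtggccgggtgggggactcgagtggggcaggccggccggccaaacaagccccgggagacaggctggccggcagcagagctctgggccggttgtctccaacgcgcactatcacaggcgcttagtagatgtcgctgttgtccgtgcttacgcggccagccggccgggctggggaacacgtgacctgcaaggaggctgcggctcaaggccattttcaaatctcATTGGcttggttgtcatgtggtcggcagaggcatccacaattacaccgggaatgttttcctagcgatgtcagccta
Hoxa9: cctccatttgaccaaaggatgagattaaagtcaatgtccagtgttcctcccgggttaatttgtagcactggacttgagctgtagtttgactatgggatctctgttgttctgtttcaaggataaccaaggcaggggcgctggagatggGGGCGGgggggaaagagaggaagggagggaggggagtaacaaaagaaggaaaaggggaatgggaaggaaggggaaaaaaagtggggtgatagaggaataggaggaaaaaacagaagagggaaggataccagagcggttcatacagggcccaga
Hoxa13: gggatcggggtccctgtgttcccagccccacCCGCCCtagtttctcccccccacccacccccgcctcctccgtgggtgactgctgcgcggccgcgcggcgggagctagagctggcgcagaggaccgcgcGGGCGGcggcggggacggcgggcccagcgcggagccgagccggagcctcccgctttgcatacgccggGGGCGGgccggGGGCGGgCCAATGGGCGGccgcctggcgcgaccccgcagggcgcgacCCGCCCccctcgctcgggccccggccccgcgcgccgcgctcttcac

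The windows differ in base composition. Hoxa13 had 81.0% G or C and 45 CpG, with 6 GC boxes, and Hoxd13 had 74.3% and 37 CpG, with 7 GC boxes and a TATA sequence that reads on both strands. Hoxd10 had 62.7% and 22 CpG, Hoxa9 had 49.7% and 4 CpG, and Hoxd8 had 46.7% and 6 CpG. In SC4, Hoxd13 and Hoxd8 were less than 2-fold below MEF and Hoxa13 was 3.37-fold lower. The windows were picked for the levels of their genes, and a relation of CpG count to level was not tested.

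RefSeq windows matched 20 of the 36 members, with 22 promoters, and the whole table holds 32851 promoters of 27025 genes. Promoters for Hoxc6, Hoxc8 and Hoxb9 were not used here. The median window had 58.7% G or C among members and 52.7% among all promoters, with 17 CpG and 7 CpG. A CCAAT box stood in 63.6% of the member promoters and 37.4% of all, a GC box in 45.5% and 35.7%, and a TATA box in 13.6% and 13.6%. The PBX-HOX site was found in 9.09% of member promoters and 3.22% of all, and the MEIS site in 9.09% and 19.2%. A match describes the letters of the window and shows no binding.

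On the log2 scale the mean of the reprogramming arrays covered different shares of the difference between MEF and ESC from gene to gene. It was 88.3% for Hoxb9, 88.2% for Hoxa13, 63.5% for Hoxc8, 36.6% for Hoxc6, 25.7% for Hoxd8 and 11.5% for Hoxd13. It was -68.0% for Hoxa9, whose reprogramming mean lay on the far side of MEF. In SC4 the same share was 112% for Hoxb9, 110% for Hoxa13, 111% for Hoxc8 and 89.6% for Hoxa9, but 28.7% for Hoxd8 and 14.2% for Hoxd13. Hoxc6 was at the floor in both SC4 and ESC and has no such share in SC4. The shares for Hoxc6, Hoxd8 and Hoxa9 use a floor value in ESC, so the distance is a lower bound and the share could be smaller in size. The Hoxa13 mean includes a CD73+ array at the floor, so its share could be larger. Across the reprogramming arrays the share ran from 65.4 to 124% for Hoxa13 and from 63.9 to 125% for Hoxb9.

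The other members were ordered by cluster. In HoxA, Hoxa7, a trunk gene, had 372 and 367 in CD49d+ cells at days 9 and 6, 368 and 383 in CD73+ cells, 363 and 344 in CD73- cells, and 353 and 369 in unsorted cells, against 344 in SC4, 318 in ESC and 371 in MEF. ESC was the lowest array, and MEF lay among the reprogramming arrays. A probe set shared by Mira and Hoxa7, left out by the member rule, gave a wider spread. It had 245 to 388 on the sorted arrays, 209 in SC4, the floor in ESC and 353 in MEF, and cannot be divided between them. Hoxa5, needed for lung and cervical development, ran from 162 to 248 on the reprogramming arrays, with 194 in SC4, 183 in ESC and 175 in MEF, and MEF again lay within the reprogramming range. Hoxa4, a gene of the cervical region, ran from 116 to 154 on the reprogramming arrays and had 115 in MEF, and its direction against MEF turned on some arrays after centring. Hoxa2, the gene that specifies the second pharyngeal arch, was the exception in SC4, with 336 there against 144 in ESC, 124 in MEF and 100 to 141 on the reprogramming arrays.

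In HoxB, Hoxb3, of the hindbrain and neck, had 182 and 202 in CD49d+ cells at days 9 and 6, 182 and 182 in CD73+ cells, 183 and 163 in CD73- cells, and 181 and 197 in unsorted cells, against 206 in SC4, 149 in ESC and 217 in MEF. Every other array was below MEF, and ESC was below all of them. Hoxb5, which acts in the enteric nervous system, had 143 and 155 in CD49d+ cells at days 9 and 6, 116 and 113 in CD73+ cells, 143 and 139 in CD73- cells, and 159 and 143 in unsorted cells, against 143 in SC4, 149 in ESC and 221 in MEF. MEF stood above all other arrays, and the CD73+ arrays were the lowest. Its other probe set gave 136 to 162 on the reprogramming arrays, with 144 and 162 in CD73+ cells at days 9 and 6, 101 in ESC and 214 in MEF, so the probe sets disagree on the CD73+ and ESC levels. The CD73+ minus CD73- difference was -0.29 on the probe set used and -0.13 with both averaged. Hoxb1, a gene of the hindbrain, was at 157 in ESC and at the floor in MEF, and Hoxb8 and Hoxb7 stayed at or under 114 on every array.

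In HoxC, Hoxc4, a gene of the neck and forelimb level, had 236 and 236 in CD49d+ cells at days 9 and 6, 211 and 211 in CD73+ cells, 211 and 211 in CD73- cells, and 211 and 250.3 in unsorted cells, against 181 in SC4, 169 in ESC and 223 in MEF. MEF lay among the reprogramming arrays, and SC4 and ESC below all of them. Hoxc10, of the hindlimb level, was 1.62-fold to 1.91-fold lower than MEF on these arrays, at least 2.76-fold lower in SC4 and 2.57-fold lower in ESC. Hoxc9, which sets the identity of thoracic motor neurons, had 132 to 177 on the reprogramming arrays, the floor in SC4 and ESC, and 225 in MEF. In HoxD, Hoxd3 stayed between 100 and 147 on every array, and Hoxd9 reached 195 in SC4 against the floor in ESC and 121 in MEF.

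**Figure D3:**
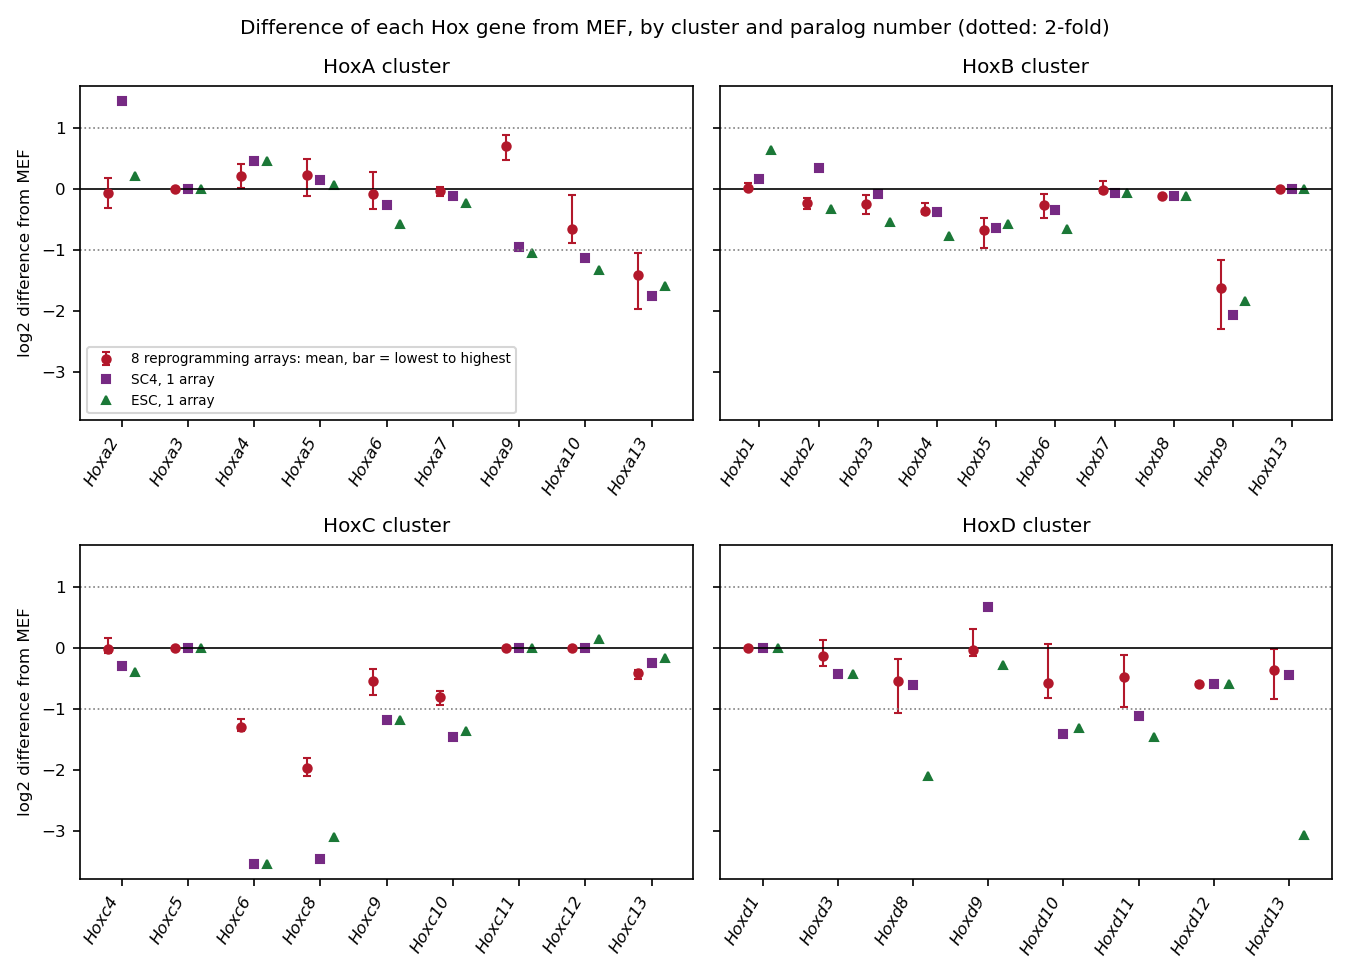
Log2 intensity on each array minus that in MEF (vertical axis) for the 36 Hox genes in cluster order (horizontal axis). Circles are the mean of the 8 reprogramming arrays with a bar over their range, squares SC4 and triangles ESC, and differences that use a floor value are bounds, 0 where both are at the floor. Hoxc6 and Hoxc8 lie lowest in SC4 and ESC, and Hoxd13 and Hoxd8 lie low in ESC but near the reprogramming arrays in SC4.

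By position, the members at least 2-fold lower than MEF were central and posterior. Taking numbers 1 to 3 as anterior, 4 to 8 as central and 9 to 13 as posterior, the members were 7, 14 and 15. In ESC the lower genes were 0 anterior, 3 central and 9 posterior, 12 in all, against 11.9% of all genes lower by this rule, and no member was at least 2-fold higher, against 12.0%. The 12 were Hoxa9, Hoxa10, Hoxa13, Hoxb9, Hoxc6, Hoxc8, Hoxc9, Hoxc10, Hoxd8, Hoxd10, Hoxd11 and Hoxd13. In SC4 they were 0 anterior, 2 central and 7 posterior, 9 in all against 11.5% of all genes, and Hoxa2 alone was higher, at 2.72-fold, against 11.0% of all genes. Over both unsorted arrays the lower genes were the same 4 as on all 8, against 7.22% of all genes lower and 7.26% higher. In MEF, 6 of the 7 anterior members were less than 2-fold above the floor, where a 2-fold lower value could not be measured. The same held for the central members Hoxa4, Hoxa5, Hoxb4, Hoxb6, Hoxb7, Hoxb8 and Hoxc5. It also held for the posterior members Hoxb13, Hoxc11, Hoxc12, Hoxc13, Hoxd9 and Hoxd12. The counts by position therefore depend on which members stood far enough above the floor in MEF.

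Centring the arrays moved every difference from MEF, floor values included, by between -0.195 and -0.0954 on the reprogramming arrays. Small differences of single members should be read against that shift.

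The comparison of poised with CD73- cells asked whether the Hox pattern separates the sorted populations. By limma with Benjamini-Hochberg adjustment over 13313 genes, 0 of the 29 Hox genes passed an adjusted p of 0.05 between the poised cells (CD49d+ and CD73+) and CD73- cells, where 12.0% of all genes passed, 7.16% as higher and 4.85% as lower. At an unadjusted limma p under 0.05 there were 4 of 29, against 30.5% of all genes. Of these, Hoxa6 was the higher one and Hoxb9, Hoxd10 and Hoxd13 the lower ones. Each population had 1 array a day, so the error is the disagreement between days, with 3 residual degrees of freedom. It is taken over all populations, the unsorted cells included, and limma moderates it across genes.

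Hoxd10 had geometric means of 160 in poised cells and 225 in CD73- cells, a difference of -0.49 ± 0.118 on the log2 scale (SE), with an adjusted limma p of 0.0612. Its groups did not overlap, but without the CD73- array of day 6, at 279, the difference was -0.26. Hoxb9 had means of 260.1 in poised cells and 338 in CD73- cells, a difference of -0.38 ± 0.105 and an adjusted limma p of 0.0817. All 4 poised arrays were below both CD73- arrays.

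Hoxa6, which acts in the trunk, had 259.9 and 280.2 in CD49d+ cells at days 9 and 6, 321 and 353 in CD73+ cells, 259.9 and 230.2 in CD73- cells, and 242 and 259 in unsorted cells, against 242 in SC4, 196 in ESC and 289 in MEF. The CD73+ arrays were the highest of all and the CD49d+ array of day 9 was level with the CD73- array of that day. Its poised minus CD73- difference was 0.30 ± 0.0826, with an adjusted limma p of 0.0791. Centring was on each array's median over the genes above the floor on all 11 arrays. With it, Hoxa6, Hoxb9 and Hoxd10 passed with adjusted limma p of 0.0490, 0.0485 and 0.0499, and with quantile normalization Hoxa6 passed at 0.0457. The number of all genes called was also larger, at 2280 with centring and 1900 with quantile normalization against 1599 as deposited. Without the CD73- array of day 6, the Hoxa6 difference was 0.16.

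Hoxd13 had means of 669 in poised cells and 885 in CD73- cells, a difference of -0.40 ± 0.151 with an adjusted limma p of 0.149, and every poised array lay below both CD73- arrays. Without the CD73- array of day 9 it was -0.17, and without that of day 6 it was -0.64. Hoxc6 differed by -0.00290 with a 95% interval of -0.148 to 0.143, and Hoxc8 by -0.034 with an interval of -0.234 to 0.166. The deposited Hoxc6 values were identical, at 465.294, on the CD73+ array of day 6 and both CD73- arrays. Those of Hoxc4 were identical, at 211.294, on both CD73+ and both CD73- arrays. The origin of such ties was not tested. The fibroblast markers summed to 3212 to 8422 in poised cells and 6327 to 8312 in CD73- cells, and 2 of the 10 passed the test as lower, and their part in the Hox values was not tested.

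By position, 9 of the 12 posterior genes tested had a negative poised minus CD73- difference, with a median of -0.17, and 7332 of all 13313 genes did, with a median of -0.0102. Of the 9, Hoxb9, Hoxd10 and Hoxd13 were lower in both poised populations on both days. Hoxa9, Hoxa10, Hoxa13, Hoxc9 and Hoxd11 were lower in both at day 9, but at day 6 a poised array was above the CD73- array. Hoxd12 was at the floor on every poised array. The counts describe the members and carry no test.

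Between CD73+ and CD73- cells, 0 of 29 Hox genes passed by limma, against 8.00% of all genes, and 6 of 29 had an unadjusted limma p under 0.05, against 28.0%. Hoxa6 differed by 0.46 ± 0.0954 with an adjusted limma p of 0.0525, and Hoxb9 by -0.58 ± 0.121 with an adjusted limma p of 0.0539. Both passed after centring, at 0.0227 and 0.0296, and after quantile normalization, at 0.0280 and 0.0465, in limma with Benjamini-Hochberg adjustment, where 1627 and 1313 of all genes passed against 1065 as deposited. Between CD49d+ and CD73- cells 0 of 29 passed by limma, against 13.3% of all genes, and 3 of 29 had an unadjusted limma p under 0.05, against 30.9%.

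Between the poised populations themselves, CD49d+ minus CD73+, 0 of 29 Hox genes passed by limma, against 0.0300% of all genes, and 4 had an unadjusted limma p under 0.05, against 24.1%. The 4 were Hoxa4, Hoxb9 and, on the probe set used, Hoxb5, all higher in CD49d+ cells, and Hoxa6, lower in them. The comparisons between sorted populations share the CD73- or the CD73+ arrays and are not independent of each other. At day 9 minus day 6, 0 of 29 passed by limma, against 0% of all genes, and 2 had an unadjusted limma p under 0.05, against 11.6%. These were Hoxd11, lower by a log2 difference of -0.29 ± 0.0983 with an adjusted limma p of 0.366, and Hoxd10, at -0.27 ± 0.0967 with an adjusted limma p of 0.392. The day difference was negative for 22 of the 29 Hox genes, with a median of -0.0391, and for 7121 of all 13313 genes, with a median of -0.00759. Some of the negative Hox differences were very small, such as -0.00497 for Hoxa7 and -0.00256 for Hoxb2. The counts carry no test and use the values as deposited, without centring.

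**Figure D4:**
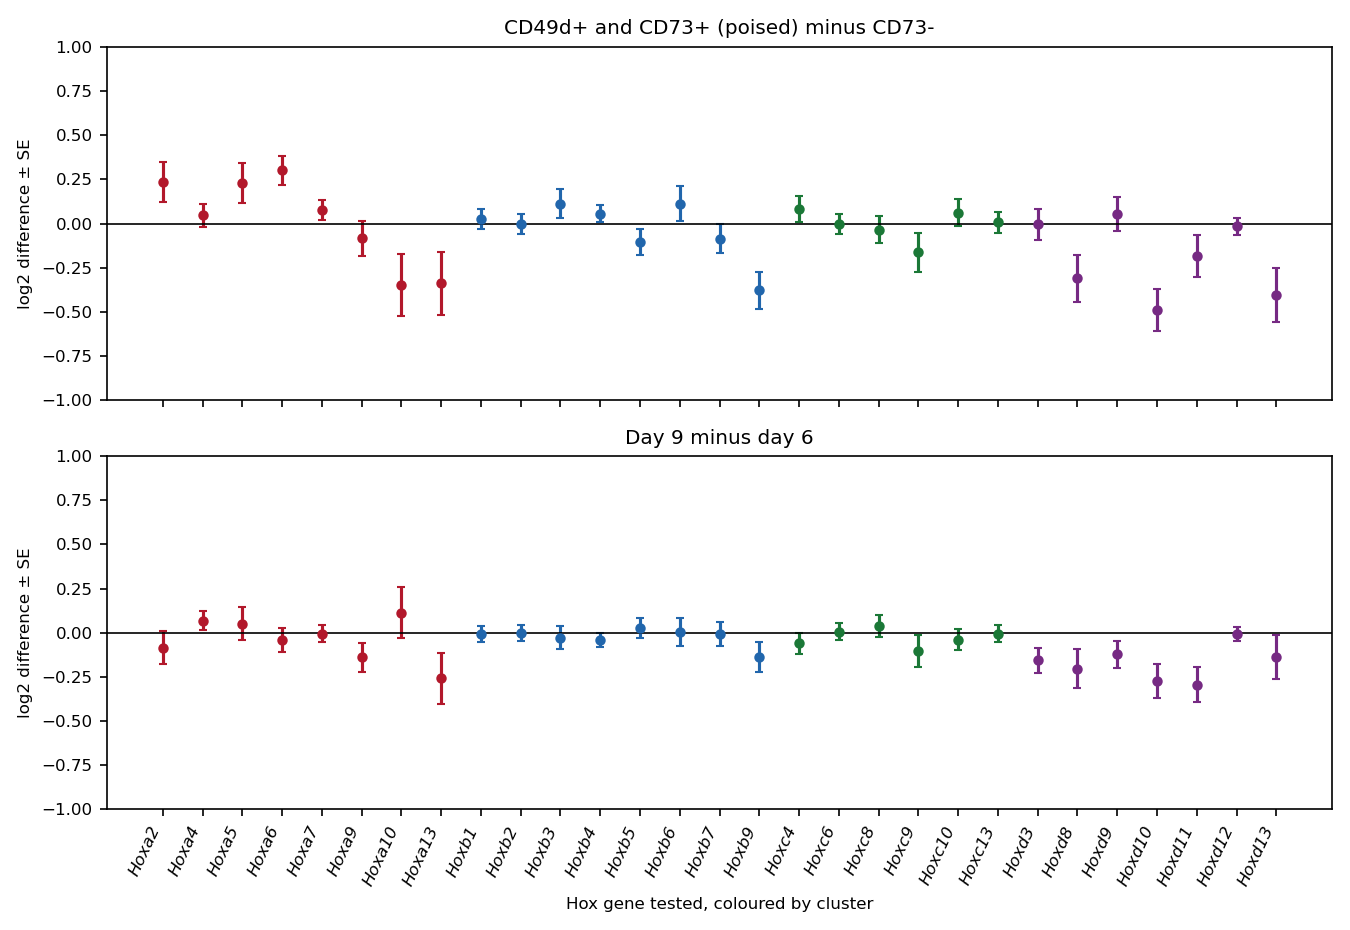
Log2 difference with its standard error for each of the 29 tested Hox genes (horizontal axis, coloured by cluster), poised minus CD73- cells and day 9 minus day 6, from the limma fit on the 8 reprogramming arrays. Hoxd10 at -0.49 is the lowest point for poised minus CD73- cells, and no gene passed an adjusted p of 0.05 in either comparison.

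The partners and inputs of Hox proteins were read from lists of other genes. Of the TALE cofactors, which bind DNA together with Hox proteins, 8 of 9 had a probe set and none passed the poised test by limma. Meis1, which stabilises posterior Hox proteins on DNA, ran from 247 to 277 on the reprogramming arrays, with 451 in SC4, 278 in ESC and 704 in MEF, and Pknox2 from 100 to 122, with 375 in ESC and 255 in MEF. These were the TALE genes at least 2-fold below MEF on all 8 arrays. Each reprogramming array had the Cdx factors, which switch on trunk Hox genes in the embryo, at the floor.

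Retinoic acid induces anterior Hox genes in the embryo. Of 15 measured genes of its synthesis, receptors and removal, 11 were tested, and limma with Benjamini-Hochberg adjustment called 2 higher and 1 lower in poised than in CD73- cells, against 7.16% and 4.85% of all genes. Crabp2, which carries retinoic acid to its receptors, differed by 1.36 ± 0.142 on the log2 scale with an adjusted limma p of 0.00976. The related binding protein Crabp1 differed by -1.39 ± 0.186 with an adjusted limma p of 0.0168, and this rests on the CD73+ cells. It had 2144 and 3840 in CD49d+ cells at days 9 and 6, 298 and 426 in CD73+ cells, and 2326 and 3009 in CD73- cells, so CD49d+ and CD73- cells overlapped. Aldh1a1, an enzyme of retinoic acid synthesis, had geometric means of 1462 in poised cells and 819 in CD73- cells, with an adjusted limma p of 0.0497. The CD73- arrays were far apart, with 1103 and 608 at days 9 and 6, against 1238 to 1624 in poised cells. Unsorted cells had 1424 and 1174 at days 9 and 6. Aldh1a1 ran from 608 to 1624 on the 8 reprogramming arrays, with the floor in SC4 and ESC and 131 in MEF.

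Of 10 genes at the ends of the clusters, 8 were tested and 1 passed, against 12.0% of all genes. Lnpk, next to HoxD, was lower in poised cells, at 237 against 409.6 in CD73- cells, a log2 difference of -0.79 ± 0.108 with an adjusted limma p of 0.0176. None of the 10 was at least 2-fold from MEF on all 8 reprogramming arrays. Of 18 measured limb and body position factors, 16 were tested, and 3 passed as higher in poised than in CD73- cells and 1 as lower by limma with Benjamini-Hochberg adjustment, against the same 7.16% and 4.85% of all genes. Prrx1, of limb mesenchyme, differed by 0.88 with an adjusted limma p of 0.0111, and Shox2, of the proximal limb, by -0.64 with an adjusted limma p of 0.0299. Tbx5, Tbx4, En1 and Emx2 were at least 2-fold lower than MEF on all 8 reprogramming arrays. Tbx5, which marks the forelimb, ran from 100 to 209 on them and had 558 in MEF, while Tbx4, which marks the hindlimb, ran from 208 to 273 and had 619 in MEF.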

How the data were processed

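The deposited values are linear intensities of an Affymetrix whole-transcript array, 41345 probe sets on 11 arrays, which the authors made with Partek per the submitters' processing notes. No value lies below 100, and the sources used here do not give the background correction, the normalization or the genome build. Genes were named from the platform annotation through RefSeq, with 23521 probe sets under 1 symbol, 1814 under several and 16010 under none. A gene with several such probe sets kept the brightest on average.

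Log2 intensities of the 8 reprogramming arrays were fitted with limma 3.58.1 in R 4.3.3, with population and day as terms and Benjamini-Hochberg adjustment over 13313 genes. A gene had to exceed the floor on 1 of the 11 arrays, which 14301 did, and not lie at it on all 8, which removed 988. The groups have no second array, so populations were compared over days, days over populations, and p-values measure only that spread, moderated across genes. MEF, SC4 and ESC entered no test, and a difference of 1 log2 unit (2-fold) was counted. The fit was tested on simulated data with the same noise for every gene, no floor and differences of at least 1 log2 unit. The tested Hox differences were smaller, so the simulation does not show how well differences of their size are recovered.

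Arrays are limited in precision by their number. Per-array values are given for the 3 members of highest mean in each cluster, namely Hoxa6, Hoxa7, Hoxa9, Hoxb3, Hoxb5, Hoxb9, Hoxc4, Hoxc6, Hoxc8, Hoxd8, Hoxd11 and Hoxd13, or for any member that passed a test, lay 2 log2 units from MEF on all 8 arrays, or stood 1 log2 unit above a floor value in MEF, or differed by 1 log2 unit between poised and CD73- cells on both days; other members described were chosen after their values were seen. The members and lists were chosen with earlier results of these data known. Median-centred and quantile-normalized arrays, no filter, another probe set rule, other fold thresholds and each array left out were tried as alternatives. The median for centring was that of the genes above the floor on all 11 arrays. In the tests, no filter meant the same fit with adjustment over all 22180 named genes.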

Additional observations from a re-analysis of the deposited data

Results flagged for a closer look

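Some differences pointed in opposite ways in the compared groups, and the difference between them was not tested, since each population has 1 array a day. For poised minus CD73- cells, Hoxc8 differed by -0.175 on the log2 scale at day 9 and by 0.107 at day 6, and Hoxd3 by -0.165 at day 9 and 0.158 at day 6. Every poised array was on the same side of the CD73- array within a day. For day 9 minus day 6, Hoxa6 differed by -0.122 in poised cells and 0.175 in CD73- cells, Hoxa13 by -0.554 in poised cells and 0.203 in CD73- cells, and Hoxc9 by -0.231 in poised cells and 0.207 in CD73- cells. The Hoxa13 value in poised cells includes a CD73+ array at the floor.

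Probe sets of the clusters that the member rule left out also gave signal. The probe set shared by Hoxd4 and Hoxd3 had a median of 453.7 over the 6 sorted arrays (363 to 515), and 342 and 399 in unsorted cells at days 9 and 6, against 345 in SC4, 212 in ESC and 344.8 in MEF, so the unsorted array of day 9 was not above MEF. It cannot be divided between the genes. The Mir196a-1 probe set, whose microRNA lies in HoxB and targets Hox transcripts, had a median of 133.6 over the sorted arrays (110 to 156), the floor and 116 in unsorted cells at days 9 and 6, and the floor in SC4, ESC and MEF.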

How the results depend on the processing

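The number of Hox genes called was 0 in each tested comparison as deposited, and scaling moved it for poised minus CD73- cells, to 3 with centred arrays and 1 with quantile normalization, and for CD73+ minus CD73- cells, to 2 with each. More of all genes were called as well. Centring and quantile normalization gave 2280 and 1900 against 1599 as deposited for poised minus CD73- cells, 1627 and 1313 against 1065 for CD73+ minus CD73- cells, and 657 and 340 against 4 for CD49d+ minus CD73+ cells. For day 9 minus day 6, centring gave 110 against 0. The setting without the filter kept the same fit and adjusted over all 22180 named genes in place of the 13313 tested. Its counts were 994 for poised, 497 for CD73+ and 1007 for CD49d+ cells, each minus CD73- cells, the last against 1777 as deposited. Without the day term CD73+ minus CD73- cells gave 612 and CD49d+ minus CD73+ cells 160, and with the 6 sorted arrays alone CD73+ and CD49d+ minus CD73- cells gave 616 and 1183. Over the alternatives the adjusted limma p for poised minus CD73- cells ran from 0.0457 to 0.260 for Hoxa6, from 0.0485 to 0.377 for Hoxb9 and from 0.0499 to 0.182 for Hoxd10, and the direction of these 3 held. Leaving out each array in turn gave 0 Hox calls in each of the 5 tested comparisons, but few genes of any kind passed in most of these fits. Over all genes they called 0 to 1597 for poised, 0 to 767 for CD73+ and 0 to 997 for CD49d+ cells, each minus CD73- cells, and 0 in the other comparisons, so they say little about stability. The number of Hox genes at least 2-fold from MEF was 4 in unsorted cells and became 7 at a 1.5-fold threshold. The cause of these moves was not tested, other than the threshold itself. On all 8 reprogramming arrays the number stayed between 4 and 5, in SC4 between 10 and 14 and in ESC between 12 and 15. No paired analysis was possible because the groups hold 1 array each and so share fewer than 2 replicate numbers. Populations of the same day are matched by the day term of the fit.

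The limits are the single MEF, SC4 and ESC arrays, 3 residual degrees of freedom in the fit, and the floor. Under the floor, a lower level of most anterior genes and of many central and posterior genes could not be measured. Day is a term in the fit and has no second array within a population, so sort, culture and array cannot be told apart. SC4 and ESC also differ from MEF in passage number and medium, and ESC in origin.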
